A study of Mus musculus with 16 samples.

Results

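Splicing removes introns from nuclear transcripts, and the choice of splice sites depends on RNA-binding proteins. SR proteins carry RNA recognition motifs and a domain rich in serine and arginine, bind exonic enhancers and recruit the spliceosome. The hnRNP proteins coat nascent transcripts and often act on splice sites in the opposite direction, and the RBM proteins are a mixed group named for an RNA recognition motif, with members in the spliceosome, the exon junction complex and the nucleolus. Brain tissue is known for a large number of alternatively spliced transcripts.

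The genes described here were all those on the array whose symbol starts with Srsf, Hnrnp or Rbm and a digit, or with the older forms Sfrs and Hnrp, without the cold-induced gene Rbm3. The rule used symbols and not expression. It gave 56 of 16593 named genes, measured by 109 probes: 9 SR protein genes, 18 hnRNP genes and 29 RBM genes. A gene was tested if 1 of its probes had a detection p-value under 0.05 on at least 8 of the 16 arrays, which 47 of the 56 genes met with 81 probes (9 SR, 16 hnRNP and 22 RBM), against 10244 genes in all.

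Hypothalamic RNA came from 16 female F1 mice of the C57BL/6J strain aged 21 days, with 1 array per mouse. Mothers of the 8 control mice (CON) ate ad libitum and mothers of the 8 mice with lactation undernutrition (LUN) were limited to 50% of the control intake, both with litters of 8 pups. The F1 generation came from 4 CON and 8 LUN litters, and the litter of each mouse was not given in the sources used here, so some CON mice may be littermates. The arrays lay on 2 BeadChips, each with 4 CON arrays in the first positions and 4 LUN arrays in the last, so position cannot be told apart from group.

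Values are on a log2 scale after background correction and quantile normalization, a change is the LUN mean minus the CON mean, and p-values come from limma with Benjamini-Hochberg adjustment over all 14870 tested probes. A gene is represented by its brightest tested probe, and the words rose and fell are used where the adjusted p was under 0.05. The arrays held 14540 to 15384 detected probes. Their mean signal before normalization was 451 ± 35.2 in CON and 377 ± 23.6 in LUN (SD, n = 8 each, two-sided exact permutation p = 0.000466). Markers of the dissected region also differed between the groups. Of 12 tested markers of hypothalamic neurons 9 fell, of 13 thalamic markers 11 rose, all 5 red cell markers fell and 6 of 7 markers of meninges and fibroblasts fell. The mean level of the thalamic markers was 9.64 to 9.95 on the LUN arrays and 7.89 to 8.95 on 6 CON arrays, while CON 4 was at 9.96 and CON 8 at 9.58. The part of these differences in the results given here was not tested, and in whole tissue fewer cells of a type and less RNA per cell cannot be told apart.

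Few of the splicing genes differed between LUN and CON, and the differences were small. By the brightest probe 1 of the 47 tested genes rose, Rbm5, against 7.17% of all tested genes. Rbm39, Rbm4b, Rbm28, Rbm8a and Srsf3 fell, which is 10.6% of the genes against 8.59% of all tested genes. No member was past 1.5-fold by its brightest probe in limma, at an adjusted p or at an unadjusted p under 0.05, against 1.39% of all tested genes past both thresholds. The groups did not overlap for 2 members, Rbm8a and Srsf3, against 2.25% of all tested genes. With 47 genes these shares lie near those of all genes, and none of the counts is a result about the splicing genes as a group.

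**Figure D1:**
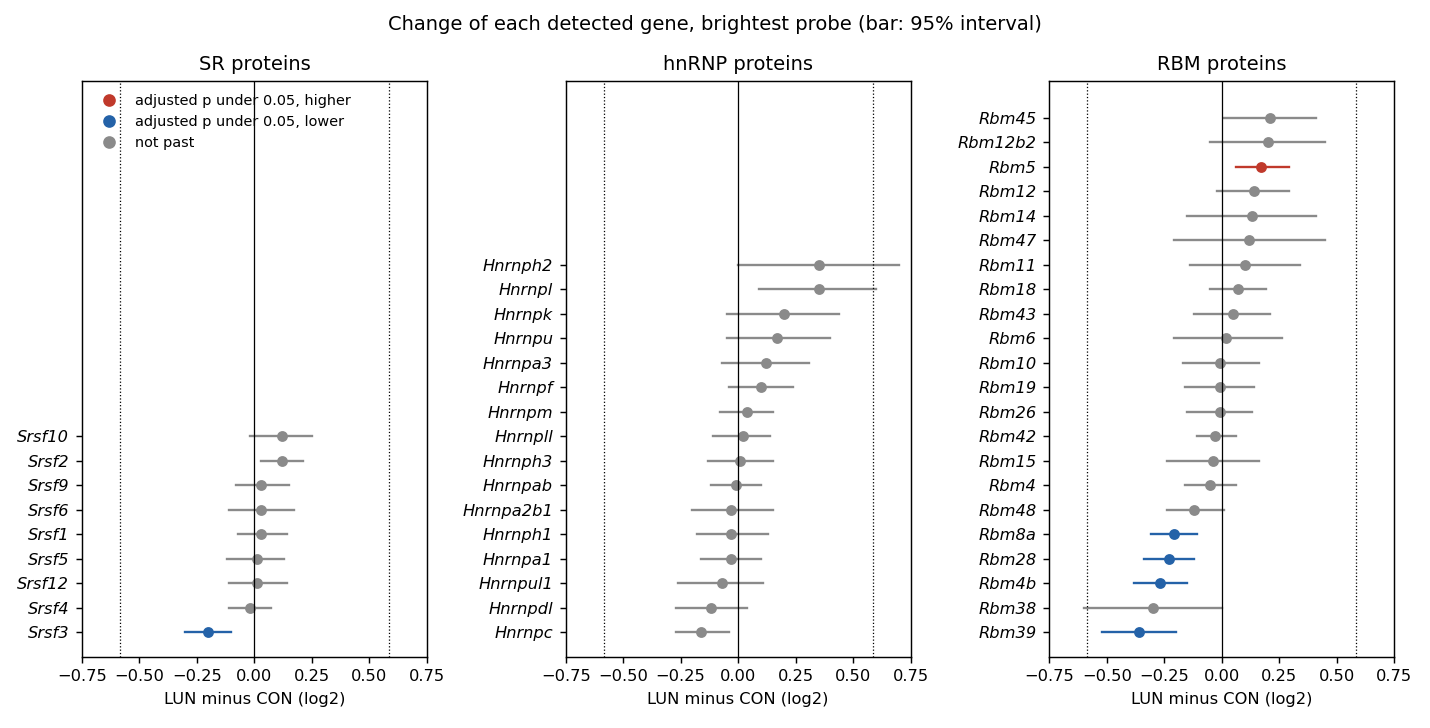
Change of each of the 47 tested genes (LUN minus CON, log2) with its 95% interval, in panels for SR, hnRNP and RBM proteins; dotted lines mark 1.5-fold. The points lie between -0.36 (Rbm39) and 0.35 (Hnrnpl and Hnrnph2), and 6 of the 47 were past an adjusted p of 0.05.

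The median change was 0.01 over the 47 genes and -0.01 over all 10244 genes, and the median size of a change was 0.10 in both. The spread between mice of a group was alike too, with a median SD of 0.14 for the members and for all genes, from 0.06 for Rbm42 to 0.37 for Hnrnph2. For 44 of the 47 genes (93.6%) the 95% interval of the change lay inside 1.5-fold in either direction, against 94.2% of all genes. The intervals of Hnrnph2, Hnrnpl and Rbm38 reached past it. A change of 1.5-fold was thus outside the interval for most splicing genes, while smaller changes were not.

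Of the 9 SR protein genes, Srsf3 fell, where 8.59% of all tested genes fell. The other 8 did not pass the test, with changes from -0.02 to 0.12, and the family median was 0.03. Srsf3 encodes a small SR protein that takes part in splicing and in export of mRNA. Its level ranged from 8.90 to 9.17 on the CON arrays (median 8.95) and from 8.68 to 8.87 on the LUN arrays (median 8.78). All LUN arrays were below all CON arrays. The change was -0.20 ± 0.05 (SE), a fold of 1.15, with an adjusted p of 0.00982 in limma, and it was -0.22 on BeadChip 1 and -0.19 on BeadChip 2. The dimmer probe of Srsf3 gave -0.18 and did not pass (adjusted p = 0.0718), and on it the groups overlapped.

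Srsf2, also called SC35, is a protein of nuclear speckles. Its values were 11.19 to 11.36 in CON and 11.28 to 11.45 in LUN, a change of 0.12 that did not pass (adjusted p = 0.0587). The second probe of Srsf2 gave 0.15 (adjusted p = 0.0723). Srsf1, a founding member of the family, had a change of 0.03 with an interval from -0.07 to 0.14. Srsf4, Srsf5, Srsf6, Srsf9, Srsf10 and Srsf12 had changes from -0.02 to 0.12 and overlapping groups.

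None of the 16 hnRNP genes passed by the brightest probe, where 7.17% of all tested genes rose and 8.59% fell. At an unadjusted p under 0.05 were 2 of them, against 3113 of 10244 tested genes. Their changes ran from -0.16 to 0.35, with a median of 0.01. Hnrnpl, which binds CA repeats, had a change of 0.35 (adjusted p = 0.0609). It was 11.09 to 11.52 on the LUN arrays (median 11.35) and 10.56 to 11.55 on the CON arrays (median 11.03). The CON arrays were thus far more spread than the LUN arrays, with CON 1 above every LUN array. Hnrnph2, a paralogue of Hnrnph1, also had a change of 0.35 with an interval from -0.00 to 0.70 (adjusted p = 0.173), and its CON arrays ran from 5.05 to 6.48.

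Hnrnpc binds uridine tracts in introns. Its brightest probe was 12.45 to 12.76 in CON and 12.37 to 12.55 in LUN, with a change of -0.16 (adjusted p = 0.0584). Its second probe fell by 0.23 (adjusted p = 0.00725 in limma), from 9.59 to 9.84 in CON to 9.36 to 9.59 in LUN. Both probes had lower medians in LUN, and a test of the difference between them did not pass (adjusted p = 0.75). The other hnRNP genes with 1 tested probe, Hnrnpa3, Hnrnpab, Hnrnpf, Hnrnph3 and Hnrnpu, had changes from -0.01 to 0.17. Hnrnpa1, Hnrnpa2b1, Hnrnpdl, Hnrnpk, Hnrnpll, Hnrnpm and Hnrnpul1 had changes from -0.12 to 0.20, and none of their probes passed.

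Among the 22 RBM genes 4 fell and 1 rose, where 8.59% of all tested genes fell and 7.17% rose. The other 17 did not pass, with changes of -0.30 to 0.21, and the family median was -0.01. With 22 genes these counts are not read as a result about the family. Rbm39 is a splicing factor related to the large subunit of U2AF. It was 6.07 to 6.57 in CON (median 6.37) and 5.83 to 6.24 in LUN (median 5.98). CON 1 at 6.07, CON 4 at 6.22 and CON 7 at 6.15 lay below LUN 6 at 6.24, and the other 5 CON arrays lay above every LUN array. The probe was dim, with a signal before normalization of 119 to 164 in CON and 92.3 to 111 in LUN. The change of -0.36 ± 0.08 (SE) was a fold of 1.28 (adjusted p = 0.00444 in limma).

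Rbm4b is a close paralogue of Rbm4, a regulator of alternative splicing and translation. It was 9.95 to 10.26 in CON (median 10.13) and 9.74 to 10.07 in LUN (median 9.86), a change of -0.27 ± 0.06 (SE, adjusted p = 0.00444 in limma). LUN 4 at 10.07 and LUN 8 at 9.96 were above CON 4 at 9.95, and the other 6 LUN arrays were below all CON arrays. Rbm4 itself had a change of -0.05 (adjusted p = 0.585), with an interval from -0.16 to 0.06. The probe sequences were not used here, so cross-hybridization between the paralogues was not examined.

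Rbm28 is a nucleolar protein. It was 9.36 to 9.61 in CON (median 9.55) and 9.14 to 9.50 in LUN (median 9.28), a change of -0.23 ± 0.05 (SE, adjusted p = 0.00792 in limma). LUN 4 at 9.50 was the only LUN array above a CON array, and the CON arrays it passed were CON 4 at 9.36 and CON 8 at 9.41. These were also the CON arrays with the high thalamic markers. Rbm28 was still lower at an adjusted p under 0.05 in limma in the fit without CON 4 and CON 8. Those arrays held its lowest CON values, so leaving them out could only widen the difference. The thalamic markers then no longer overlap between the groups, so this fit cannot tell thalamic content apart from group. The part of the thalamic difference in the result was not tested.

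Rbm8a, also called Y14, is a core protein of the exon junction complex. It was 8.70 to 8.92 in CON (median 8.87) and 8.49 to 8.68 in LUN (median 8.63), so that all LUN arrays were below all CON arrays. The change of -0.21 ± 0.05 (SE) was a fold of 1.16 (adjusted p = 0.00602 in limma), with -0.24 on BeadChip 1 and -0.18 on BeadChip 2. The other 5 genes called here also moved the same way on both BeadChips, as the plot of the called genes by array shows.

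Rbm5 regulates splicing of apoptosis genes and was the only member that rose. It was 11.59 to 11.78 in CON (median 11.74) and 11.60 to 11.99 in LUN (median 11.95). LUN 2 at 11.60 was next to the lowest CON array, and the other 7 LUN arrays were above every CON array. The change of 0.17 ± 0.05 (SE) was a fold of 1.13 with an adjusted p of 0.0425 in limma, near the threshold, and the call was lost in 13 of the 16 fits that left out 1 array (adjusted p up to 0.0811), all but those without CON 8, LUN 2 or LUN 5. Its second bright probe gave 0.14 (adjusted p = 0.0582) and its dim probe 0.12. Its relatives Rbm6 and Rbm10 had changes of 0.02 and -0.01.

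**Figure D2:**
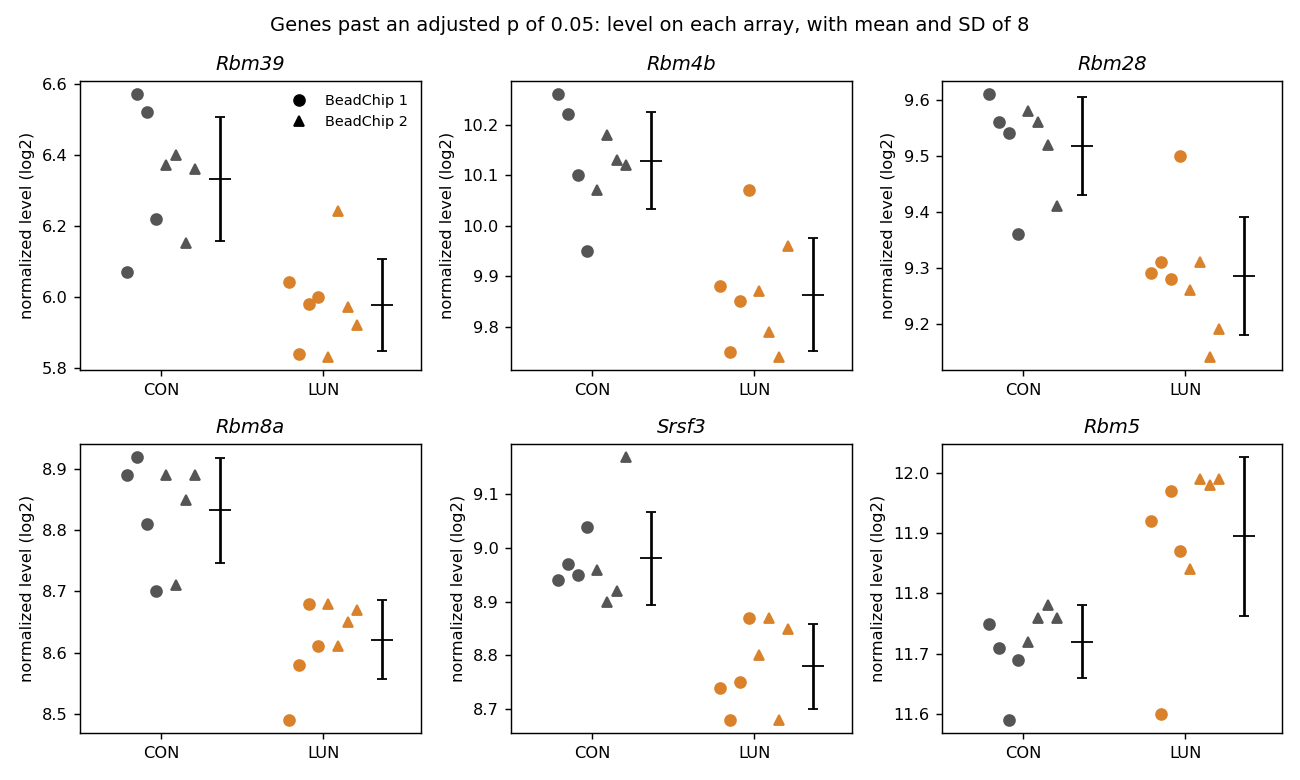
Normalized log2 level of the 6 called genes on each array (circles BeadChip 1, triangles BeadChip 2), with the mean and SD of 8 arrays beside each group; the vertical axes do not start at 0. Rbm8a and Srsf3 do not overlap between CON and LUN, and the low LUN array of Rbm5 is LUN 2 at 11.60.

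The other RBM genes did not pass. Rbm38, which binds mRNA of cell cycle regulators, had a change of -0.30 with an interval from -0.60 to -0.00 (adjusted p = 0.167), and CON 8 at 5.19 was its lowest array. Rbm45 and Rbm12b2 had changes of 0.21 and 0.20, and Rbm12 0.14, with all 4 probes of Rbm12 between 0.13 and 0.20 and none past the test. The remaining genes, Rbm11, Rbm14, Rbm15, Rbm18, Rbm19, Rbm26, Rbm42, Rbm43, Rbm47 and Rbm48, had changes from -0.12 to 0.13. Rbm42 was the most even of them, with 9.88 to 10.02 in CON and 9.81 to 9.99 in LUN.

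Hnrnpd, Hnrnpr, Rbm7, Rbm12b1, Rbm24, Rbm25, Rbm34, Rbm41 and Rbm44 were not tested. Just outside the detection rule was Rbm41, detected on 7 arrays by its best probe, followed by Hnrnpr with 5 and Rbm24 with 4. Just inside it were Rbm47 with 11 arrays and Rbm45 with 12, and the other 45 tested genes had a probe detected on all 16.

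The promoter windows of the called genes and of Hnrnph1 are shown as a description. The sequences are from RefSeq on GRCm38.p6, from 150 bases before the most upstream annotated start to 20 bases from it, on the strand of the gene. No entry for Rbm8a was used. Capitals mark 5 short words searched on either strand, and those matched do not overlap in these windows. The first is CCAAT, the box that the factor NF-Y binds. Another, TATAAA, is the classical TATA box near the start of a gene. The core of the cAMP response element was searched as TGACG on both strands. The GC box bound by Sp1 was searched as GGGCGGG, and the ETS site as the word CCGGAAG in the same way.
Rbm39, chr2:156180219-156180388, minus strand: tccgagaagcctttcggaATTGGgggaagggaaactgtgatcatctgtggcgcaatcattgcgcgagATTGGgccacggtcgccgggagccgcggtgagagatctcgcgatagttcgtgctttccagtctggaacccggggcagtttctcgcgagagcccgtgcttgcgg
Rbm4b, chr19:4756375-4756544, plus strand: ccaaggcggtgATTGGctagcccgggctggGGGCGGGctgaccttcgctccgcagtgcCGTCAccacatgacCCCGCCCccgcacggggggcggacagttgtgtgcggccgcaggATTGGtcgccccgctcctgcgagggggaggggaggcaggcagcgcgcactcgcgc
Rbm28, chr6:29164705-29164874, minus strand: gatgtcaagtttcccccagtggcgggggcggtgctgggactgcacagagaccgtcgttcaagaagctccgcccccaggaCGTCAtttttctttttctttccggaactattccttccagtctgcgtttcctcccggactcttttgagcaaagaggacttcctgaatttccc
Srsf3, chr17:29032510-29032679, plus strand: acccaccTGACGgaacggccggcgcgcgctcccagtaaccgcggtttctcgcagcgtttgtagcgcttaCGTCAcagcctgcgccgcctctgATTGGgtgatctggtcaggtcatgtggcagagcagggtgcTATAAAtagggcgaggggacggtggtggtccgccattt
Rbm5, chr9:107770983-107771152, minus strand: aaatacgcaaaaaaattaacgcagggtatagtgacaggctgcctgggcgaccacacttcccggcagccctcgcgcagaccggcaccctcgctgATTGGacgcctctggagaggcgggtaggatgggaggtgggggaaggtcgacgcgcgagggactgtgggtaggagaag
Hnrnph1, chr11:50376840-50377009, plus strand: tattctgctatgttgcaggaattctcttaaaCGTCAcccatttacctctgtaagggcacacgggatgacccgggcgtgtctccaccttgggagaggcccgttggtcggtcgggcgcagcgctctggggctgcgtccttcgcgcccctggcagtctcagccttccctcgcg
The windows of Rbm39 and Rbm4b each held 2 matches to the CCAAT box, those of Srsf3 and Rbm5 held 1, and those of Rbm28 and Hnrnph1 held none. Srsf3 alone of the 6 held a TATA box. Over the 51 members with a window, 47.1% held the CCAAT box and 41.2% the core of the cAMP response element, against 29.4% and 23.7% of the 8303 tested genes with a window and 27% and 15.3% of all 27025 windows. The GC box was in 31.4% of the members, 41% of the tested genes and 21.9% of all windows. The TATA box was in 11.8%, 4.13% and 8.58%, and the ETS site in 11.8%, 13% and 6.98%. These are matches of letters and describe the windows only. A part of these words in the changes was not tested.

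Probes of Hnrnph1, which binds runs of guanosine, differed in their changes. The array held 5 probes for it, all assigned to the same RefSeq transcript and all detected on every array. The brightest, ILMN_1218767, was 10.40 to 10.87 in CON and 10.47 to 10.77 in LUN, a change of -0.03 (adjusted p = 0.853 in limma). ILMN_2688923 and ILMN_1256671 had changes of -0.09 and -0.13 and did not pass. On these 3 probes the groups overlapped.

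The 2 dimmer probes of Hnrnph1 fell. ILMN_2684987 was 7.86 to 8.08 in CON (median 8.04) and 7.02 to 7.71 in LUN (median 7.30), with no overlap. Its change of -0.67 ± 0.08 (SE) was a fold of 1.59 (adjusted p = 0.000107 in limma), -0.69 on BeadChip 1 and -0.64 on BeadChip 2. Before normalization its signal was 260 to 401 in CON and 170 to 221 in LUN. ILMN_2684986 was 7.38 to 7.61 in CON (median 7.50) and 6.58 to 7.51 in LUN (median 6.91), a change of -0.57 (adjusted p = 0.00101 in limma). LUN 4 at 7.51 stood in the CON range, and the other 7 LUN arrays lay between 6.58 and 6.96, below every CON array.

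Hnrnph1 was thus the only member with any probe past 1.5-fold, 1 of 47 against 1.62% of all tested genes, as read from all probes after their values had been seen. Without LUN 4 the changes of its dimmer probes were -0.72 and -0.66, and without CON 4 and CON 8 they were -0.67 and -0.55. All 4 values passed in limma. Without CON 4 and CON 8, the CON arrays with the high thalamic markers, thalamic content cannot be told apart from group. LUN 4 was also the highest LUN array for 3 of the 5 genes that fell, Rbm4b, Rbm28 and Srsf3. For Srsf3 LUN 4 and LUN 6 were both at 8.87 after rounding.

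**Figure D3:**
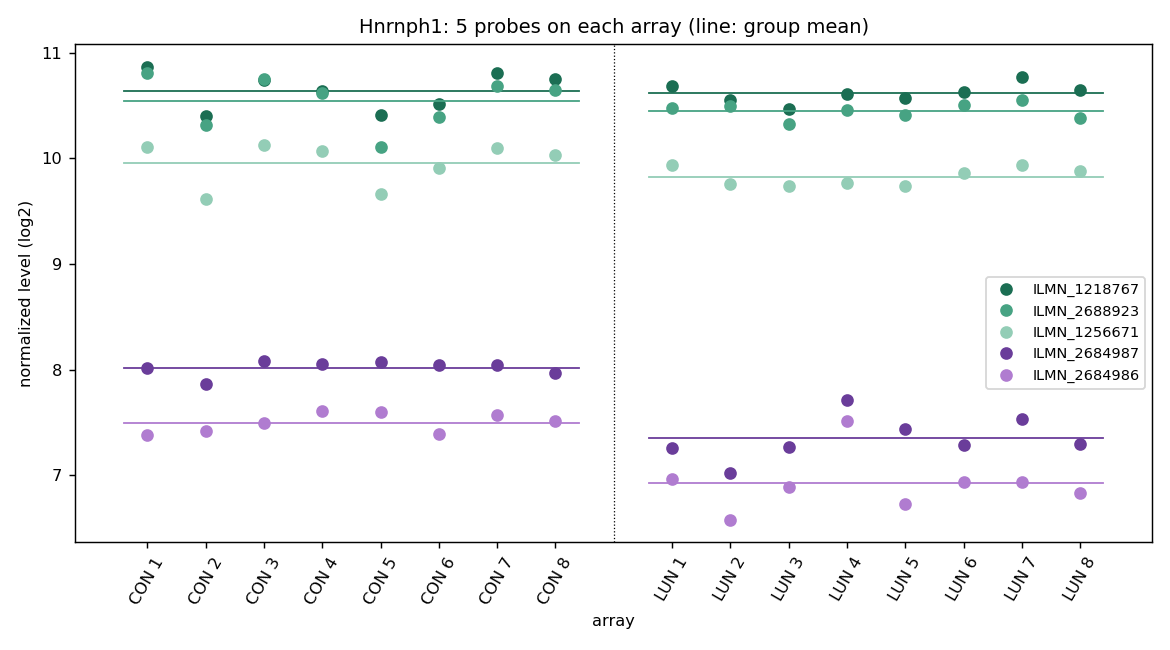
Normalized log2 level of the 5 Hnrnph1 probes on each of the 8 CON and 8 LUN arrays, with a line at the mean of each group. The 2 dimmer probes drop between CON and LUN (changes of -0.67 and -0.57) with LUN 4 the highest LUN array, while the 3 brighter probes change by -0.03, -0.09 and -0.13.

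The difference between probes was tested by itself. For each of the 2690 genes with at least 2 tested probes, each probe was set against the mean of the gene's other probes on the same array, and LUN and CON were compared with limma over all 6429 such probes. ILMN_2684987 departed from the other Hnrnph1 probes by -0.46 (95% interval -0.62 to -0.30, adjusted p = 0.0049) and ILMN_1218767 by 0.34 (0.22 to 0.46, adjusted p = 0.00666). The departures of the other 3 probes, -0.35 for ILMN_2684986, 0.21 for ILMN_1256671 and 0.26 for ILMN_2688923, did not pass. The departures of a gene's probes are not independent, since each probe is part of the mean set against the others. ILMN_1218767 itself changed by -0.03, so its departure is not separate evidence. A departure is a difference of probe signals and not a ratio of transcripts.

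Hnrnph1 was the only 1 of 22 members with several tested probes to hold a departing probe, against 2.68% of the 2690 genes. The widest distance between the changes of 2 probes of a gene was 0.64 for Hnrnph1, under 0.25 for the other 21 members and 0.08 in the median over members, against 0.09 over all genes. Next were Hnrnpk with 0.21 and Srsf5 with 0.20. The probes of Srsf5 are assigned to different RefSeq transcripts, and their changes were 0.01 and -0.19, a difference that did not pass (adjusted p = 0.198). No member had a probe that rose and another that fell, against 0.223% of the 2690 genes. Where in the transcripts the probes lie was not examined here.

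The counts depended on how the arrays were scaled. Under median scaling in place of quantile normalization, the median change of all genes moved from -0.01 to -0.10 and that of the members from 0.01 to -0.10. No member then rose (3.42% of all genes did; 1 member was higher at an unadjusted p under 0.05) and 11 fell (28.3% of all genes did). The 5 genes that fell under quantile normalization were among the 11, with changes of -0.42 for Rbm39, -0.41 for Rbm4b, -0.35 for Rbm28, -0.34 for Rbm8a and -0.33 for Srsf3. All 5 were below the shift of all genes. Hnrnpc, Hnrnpdl, Rbm48, Rbm4, Rbm42 and Srsf4 were the 6 added, at -0.30 to -0.16. Rbm5 had a change of 0.04 (adjusted p = 0.643), above the shift but near 0, and ILMN_2684987 of Hnrnph1 had -0.78.

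**Figure D4:**
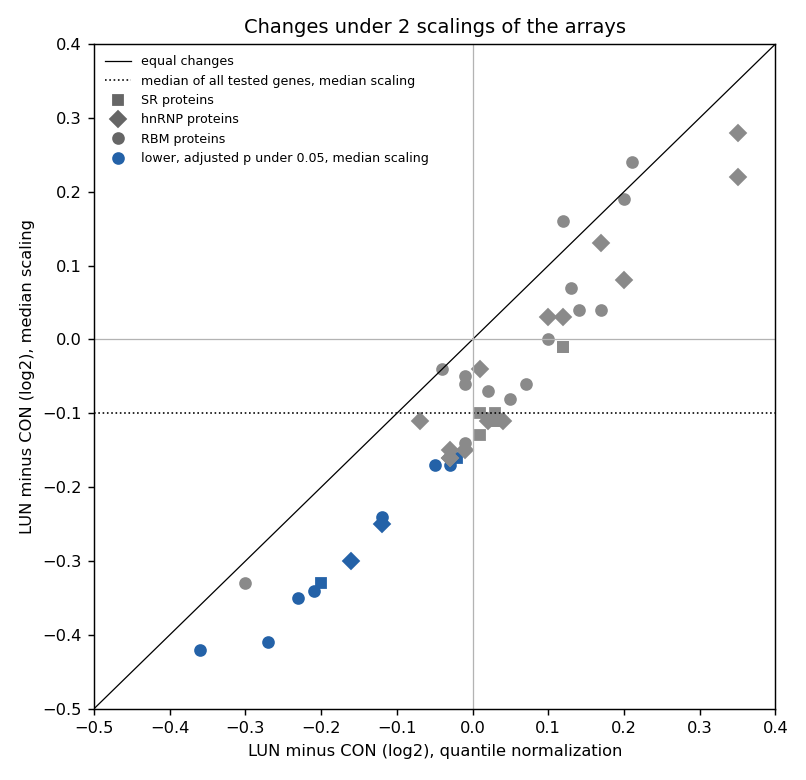
Change of each of the 47 genes under quantile normalization (horizontal) and median scaling (vertical), both LUN minus CON in log2; the dotted line is the median of all tested genes under median scaling, -0.10. Most points lie under the line of equal changes, and 11 genes were lower at an adjusted p under 0.05 under median scaling.

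Genes of the splicing machinery outside the 3 families were read from lists of known members. Their counts stand beside those of all 10244 tested genes, of which 7.17% rose, 8.59% fell and 3113 had an unadjusted p under 0.05. Of 49 tested core spliceosome genes, 2 rose and 6 fell, near the 7.17% and 8.59% of all genes, with a median change of -0.04 against -0.01. Snrnp70, a protein of the U1 particle, was 7.47 to 8.42 in CON and 8.06 to 8.56 in LUN, with a change of 0.55 (adjusted p = 0.00734 in limma). Prpf38b rose by 0.23 (adjusted p = 0.0463), a call lost in 12 of 16 fits without 1 array. Of the SF3B proteins of the U2 particle, Sf3b6 fell by 0.30 and Sf3b1 by 0.29, the latter with a call lost in 10 of the 16 fits. The probe of Sf3b1 was dim, with 5.36 to 5.90 in CON and 5.06 to 5.59 in LUN. The other genes that fell were Sf3b3, Sf3b4, Crnkl1 and Syf2, by 0.14 to 0.25. Syf2 had 2 tested probes, and only the brighter is given here. Under median scaling 1 gene of the list, Snrnp70, was higher and 22 were lower, where 3.42% of all genes were higher and 28.3% lower.

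Of 23 tested tissue regulators of splicing, 6 rose and none fell, against 7.17% and 8.59% of all genes, with 10 at an unadjusted p under 0.05 against 3113 of 10244 and a list median of 0.05 against -0.01. Rbfox2, which binds a motif beside neuronal exons, was 6.04 to 6.49 in CON and 6.39 to 6.64 in LUN, a change of 0.33 (adjusted p = 0.00233 in limma). Tial1, a relative of Tia1, rose by 0.30 (adjusted p = 0.00828), but its dimmer probe gave 0.04. Pcbp3, Mbnl2, Elavl2 and Celf2 rose by 0.19 to 0.28. Rbfox2, Mbnl2, Elavl2 and Celf2 each had 2 tested probes, and only the brighter is given here. Under median scaling 1 gene of the list, Rbfox2, was higher and 5 were lower, against 3.42% and 28.3% of all genes, and the list median was -0.01 against -0.10 for all genes.

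A list labelled FET and paraspeckle proteins also held other RNA-binding proteins, such as Cirbp, Khsrp, Fubp1, Ilf2 and Syncrip. Of its 14 tested genes, 3 rose and none fell, against 7.17% and 8.59% of all genes. At an unadjusted p under 0.05 were 6 of the list, against 3113 of 10244. Pspc1, a paraspeckle protein with a dim probe, was 5.15 to 5.51 in CON and 5.36 to 6.04 in LUN. It rose by 0.35 (adjusted p = 0.0121 in limma), with 0.21 on BeadChip 1 and 0.49 on BeadChip 2. Cirbp, a cold-inducible RNA-binding protein related to Rbm3, rose by 0.34 (adjusted p = 0.0187) and Taf15 by 0.24. Under median scaling 1 gene of this list was higher and 1 lower, against 3.42% and 28.3% of all genes.

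Of 16 tested cofactors related to SR proteins, 2 rose and 1 fell, near the 7.17% and 8.59% of all genes. Nktr, a cyclophilin with a domain rich in serine and arginine, was 4.93 to 6.41 in CON and 4.61 to 5.40 in LUN, a change of -0.93 (adjusted p = 0.00195 in limma) and the only 1 past 1.5-fold in any list. Srrm2, a scaffold of nuclear speckles, rose by 0.33 by the brightest of its 3 tested probes, the only one given here. Arglu1 rose by 0.24 with no overlap between groups. Under median scaling 1 of the cofactors, Srrm2, was higher and 6 were lower, against 3.42% and 28.3% of all genes. None of the 7 SR kinases passed, with 4 at an unadjusted p under 0.05, and none of 11 genes of nonsense-mediated decay and the exon junction did, with 0 at that level. In the same fit Rbm8a, itself an exon junction protein, fell.

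**Figure D5:**
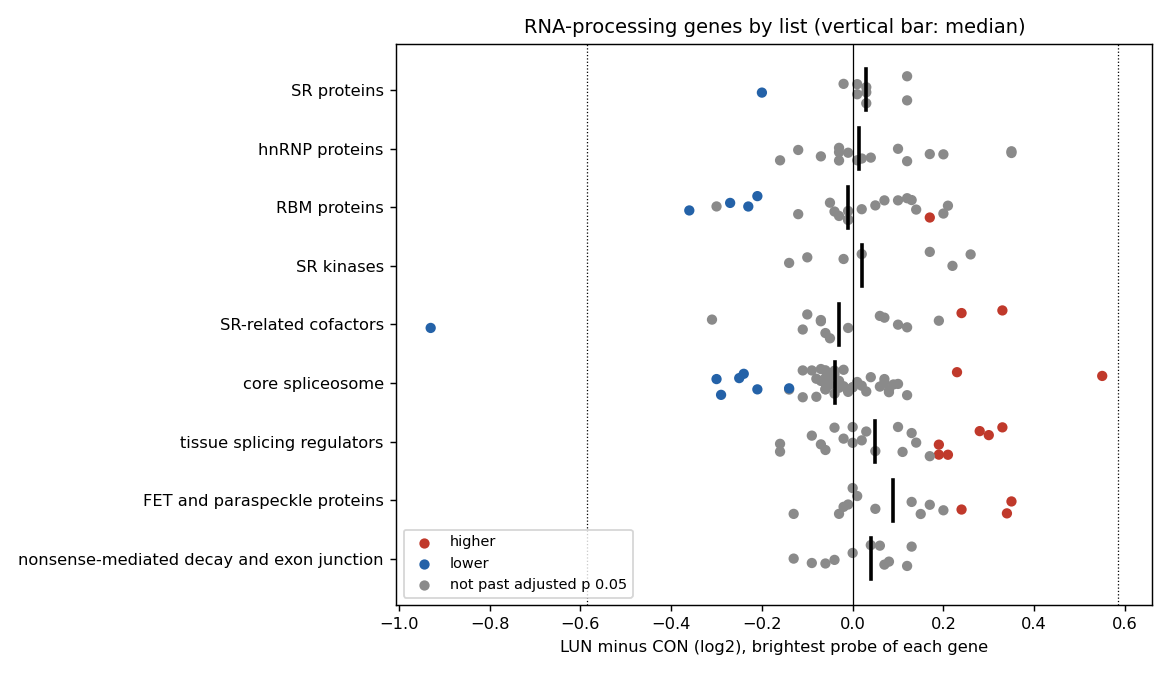
Change of each tested gene (LUN minus CON, log2, brightest probe) in the 3 families and the 6 lists, with a bar at the median of each; dotted lines mark 1.5-fold. Medians lie between -0.04 (core spliceosome) and 0.09 (the mixed list labelled FET and paraspeckle proteins). Nktr at -0.93 stands apart on the left.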

How the data were processed

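The authors deposited intensities, which are mean bead signals per probe from GenomeStudio for Illumina MouseRef-8 v2 arrays with no background subtraction and no normalization between arrays. The deposited detection p-values compare each signal with the negative controls of the array. The authors also deposited a table of log2 values, quantile-normalized with each probe centred on its median, which served as an alternative. Labels gave the groups of all 16 arrays.

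From the intensities, log2 values were computed with neqc in limma 3.58.1 (R 4.3.3), with background estimated from the detection p-values, an offset of 16 and quantile normalization. Of 25697 probes, 23978 carried a gene symbol, from the platform annotation updated by Entrez ID. Of these, 14870 probes (13983 with a symbol) had a detection p-value under 0.05 on 8 or more arrays. The group effect, LUN minus CON, was fitted by lmFit and eBayes with no other term and adjusted by Benjamini-Hochberg over these probes, after the scripts had been tested on simulated data. The brightest tested probe stood for a gene. The comparison of probes within a gene was added after the values had been seen. Mean signals were compared over all 12870 splits of the arrays. Array intensities give no read depth, so the number of arrays and the signal over background limit the precision.

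The members and the gene lists were chosen with earlier results of these data known. All members past the adjusted p were named, with group values for the largest rises and falls that ran the same way on both BeadChips, for members past 1.5-fold and for members whose probes differ. Of each list, the 2 largest rises and the 2 largest falls were given. Taf15, Sf3b3, Sf3b4, Crnkl1, Syf2, Pcbp3, Mbnl2, Elavl2 and Celf2, and the genes near the threshold, were named after their values had been seen. Promoter sequences came from RefSeq (GRCm38.p6), with an entry for 51 of 56 genes. The alternatives were other background and scaling settings, detection filters, array weights, BeadChip and replicate blocks, single BeadChips, arrays left out and other probes for a gene.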

Additional observations from a re-analysis of the deposited data

Results flagged for a closer look

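An array stood far from the other 7 of its group for 3 of the probes named, out of 44 groups of 8 arrays examined, and chance gives such an array in about 5% of groups. For Rbm5, LUN 2 at 11.60 lay below the other LUN arrays at 11.84 to 11.99, a gap of 0.60 of the group's range. Without LUN 2 the change of Rbm5 was 0.21. For ILMN_2684986 of Hnrnph1, LUN 4 at 7.51 lay above the others at 6.58 to 6.96, a gap of 0.59 of the range. For Snrnp70, LUN 8 at 8.06 lay below the others at 8.37 to 8.56, a gap of 0.63 of the range.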

How the results depend on the processing

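The number of members that rose, 1, was not stable. It was 0 under median scaling, without normalization, with the detection filter at 1 array, with the probe of lowest mean and on BeadChip 1 or 2 alone, 2 with the deposited log2 values, detection on all 16 arrays, no variance moderation or the mean of the probes, and 3 with array weights, an offset of 50 or the signals as deposited. It was 0 to 3 with 1 array left out. The genes added were Srsf2 and Hnrnpl, and Rbm45 and Rbm12 without CON 8. The number that fell, 5, was 11 under median scaling, where 28.3% of all genes fell. It was 28 without normalization, where the median change was -0.26 for the members and for all genes alike. On each BeadChip alone it was 0 (5 and 6 members lower at an unadjusted p under 0.05). In the other alternatives it was within 1.5 times, and without CON 4 and CON 8 it was 7, with Rbm38 and Hnrnpc added. It was also 7 with the mean of the probes, where Hnrnph1 and Hnrnpc were added. With the probe of lowest mean it was 6, with Hnrnph1 and Hnrnpc added and Srsf3 lost. Rbm39, Rbm4b, Rbm28, Rbm8a and Srsf3 kept their calls in all 16 fits without 1 array. Shares of all genes called are given here only for the main fit and median scaling. Counts in the other settings are thus not read as a result about the members or the lists.

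The count of members with a probe past 1.5-fold, 1, was 0 on BeadChip 1, with an offset of 50 and with the signals as deposited. That of members with a departing probe, 1, was 0 on each BeadChip alone. List genes that rose, 13, were 4 under median scaling and 0 without normalization or on each BeadChip alone, and those that fell, 7, were 37, 75, 0 (BeadChip 1) and 1 (BeadChip 2). Without normalization the changes of Rbm5, Arglu1 and Prpf38b reversed to -0.12, -0.06 and -0.03. In that setting the median change of all genes was -0.26. The cause of the reversals was not tested.

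Arrays of the same replicate number did not deviate together (correlations of -0.288 to 0.0981), and the number was not used as a pairing in the main fit. These correlations cannot exclude a pairing by litter, which was not given. With the number as a block, 0 members rose, 5 fell and 3 list genes fell. Dim probes such as those of Rbm39, Rbm45, Nktr, Pspc1 and Sf3b1 lie near background, which limits their folds.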
